A study of Mus musculus with 9 samples.

Results

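The 6 genes described here carry the synthesis, storage, uptake and breakdown of histamine and serotonin in the mast cell. They were taken by gene symbol, namely Hdc, Tph1, Ddc, Slc18a2, Slc6a4 and Hnmt, and all 6 were among the 15109 genes of the table. Messenger RNA had been sequenced from wild-type C57BL/6 mast cells that were grown out of bone marrow for at least 4 weeks in 30% WEHI-3-conditioned medium and 20% serum, with 3 libraries in each of 3 groups. Control cells were untreated. BSA cells were loaded with anti-DNP-IgE and then given DNP-BSA, the antigen that crosslinks this IgE on its receptor. Taxinine cells had 1 h of taxinine, a taxane diterpenoid from yew, before the same antigen. No group had IgE without antigen, so IgE loading and antigen cannot be told apart in comparisons with Control. The labels state neither a taxinine dose, an antigen exposure time nor a vehicle, and no group had taxinine without antigen. They speak of biological replicates but do not say that these were separate animals or cultures, so the p-values cover only the spread among the 3 libraries of a group, part or all of which may be technical.

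Histamine is made in a single step, the decarboxylation of histidine by histidine decarboxylase (Hdc). Serotonin is made in a pair of steps, hydroxylation of tryptophan by tryptophan hydroxylase 1 (Tph1) and decarboxylation of the product by aromatic L-amino acid decarboxylase (Ddc). Rodent mast cells keep both amines in secretory granules, which the vesicular monoamine transporter VMAT2 (Slc18a2) fills, and release them when IgE is crosslinked. The plasma membrane serotonin transporter SERT (Slc6a4) takes serotonin back up, and histamine N-methyltransferase (Hnmt) inactivates histamine inside the cell.

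Among the 6 genes, Hdc had the largest rise after IgE and antigen, and Slc6a4 the largest called fall with taxinine. Slc18a2 serves both amines. The promoters of these 3 genes are shown for those reasons. Each is the 250 bases before the RefSeq start in GRCm38.p6, read 5′ to 3′ on the gene's own strand, at chr2:126618679-126618928 on the minus strand for Hdc, chr19:59260628-59260877 on the plus strand for Slc18a2 and chr11:76998347-76998596 on the plus strand for Slc6a4. None of these 3 windows overlaps an annotated exon. The Hdc window lies inside the annotated gene, which begins farther upstream at 126619299, and the other windows lie before their annotated genes. Capitals mark the GC box (GGGCGG), the GATA motif (the letters AGATAA or the letters AGATAG, and the same with a leading T in place of the leading A) and the cyclic AMP response element (TGACGTCA), each searched on both strands.
Hdc: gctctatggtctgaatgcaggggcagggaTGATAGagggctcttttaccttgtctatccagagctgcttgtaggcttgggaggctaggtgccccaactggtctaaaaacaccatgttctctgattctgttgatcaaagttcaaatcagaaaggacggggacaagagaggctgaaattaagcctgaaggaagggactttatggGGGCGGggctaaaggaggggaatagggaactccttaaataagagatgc
Slc18a2: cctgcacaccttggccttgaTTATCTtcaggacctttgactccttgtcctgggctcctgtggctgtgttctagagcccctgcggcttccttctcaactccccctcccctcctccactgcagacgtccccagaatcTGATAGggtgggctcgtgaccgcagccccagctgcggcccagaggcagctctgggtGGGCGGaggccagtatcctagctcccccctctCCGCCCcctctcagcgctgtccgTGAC
Slc6a4: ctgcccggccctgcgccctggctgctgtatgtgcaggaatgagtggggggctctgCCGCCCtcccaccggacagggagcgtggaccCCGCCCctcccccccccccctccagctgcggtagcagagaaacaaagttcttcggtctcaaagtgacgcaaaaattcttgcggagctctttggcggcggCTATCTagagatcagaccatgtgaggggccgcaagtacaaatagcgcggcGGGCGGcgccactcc
The search ran to 50 bases past the start, and the last 4 capitals of Slc18a2 begin a cyclic AMP response element that crosses its start. That element is in 1.79% of the 32851 promoter windows of the same length, and neither of the other windows held it. Hdc had 1 GC box and 1 GATA match, Slc18a2 had 2 of each, and Slc6a4 had 3 GC boxes and 1 GATA match. Such matches are common, since 35.7% of all windows hold a GC box and 29.8% a GATA match. The E-box letters CANNTG, not capitalised, occurred in each window, as in 72.3% of all windows, and none of the 3 held the AP-1 letters (TGACTCA, or the same with G for the central C), found in 5.20% of all windows, TATAAA, found in 13.6%, or GGAAA, found in 61.3%. The matched letters do not overlap one another.

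Library totals ran from 8975371 to 14116976 counts. Levels are CPM, counts divided by library size and put on a common scale, after adjustment of library sizes by TMM (trimmed mean of M values). The TMM factors were 1.10 to 1.11 in Control, 0.941 to 0.947 in BSA and 0.957 to 0.963 in Taxinine. All 10 listed mast cell markers were in the table, and their summed level was 51778 to 53314 CPM in Control, 54751 to 56759 in BSA and 55011 to 56262 in Taxinine. Cpa3, the granule carboxypeptidase, was at 16684 to 18490 CPM over the 9 libraries, and Kit at 3609 to 4145. Fcer1a, Ms4a2, Cma1, Tpsb2 and Il1rl1 stayed at or above 1576 CPM. The remaining listed markers were far lower, with Mcpt4 at 83.6 to 93.0 CPM, Tpsab1 at 37.2 to 131.6 and Mrgprb1 at 0.680 to 2.00. All 5 genes of a basophil list were in the table too, with a summed level of 3650 to 3723 CPM in Control, 3867 to 4098 in BSA and 3799 to 3840 in Taxinine, most of it from Gzmb, Cd200r3 and Prss34, while Mcpt8 was at 67.5 to 94.0 and Itga2 at or below 0.570. Of the megakaryocyte and platelet list, Itga2b was at 1598 to 1765 CPM and Gp1ba at 183 to 209.7 over the 9 libraries. The single T cell and the single neutrophil gene in the table (Lck and Ly6g) stayed under 1 CPM, and no other gene of those lists was in the table. B cell genes summed to at most 2.28 CPM and erythroid genes, mostly Hbb-bt, to at most 40.6. Macrophage genes summed to 59.6 to 61.1 CPM in Control, 66.0 to 72.3 in BSA and 62.8 to 66.0 in Taxinine, with Adgre1 at 42.7 to 53.2 over the 9 libraries and Csf1r at or below 1.27.

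Per kilobase of exon, the serotonin enzyme Tph1 and the vesicle transporter Slc18a2 had the highest levels of the 6 in every group, far above the others in Control. In Control, Tph1 was at 1038 CPM per kb, which was rank 16 of 15106 genes with an annotated length, and Slc18a2 at 293 (rank 91). Hdc followed with 30.5 CPM per kb (rank 1415) and Ddc with 11.8 (rank 3669). Slc6a4 had 0.768 CPM per kb and Hnmt 0.160, at ranks 10957 and 13361. In BSA, Hdc was at 189 CPM per kb (rank 232) against 353 for Slc18a2, in Taxinine at 179 against 351, and the order of the 6 genes was the same in all 3 groups. No neighbours in that order overlapped in their per-kb values within any group.

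**Figure D1:**
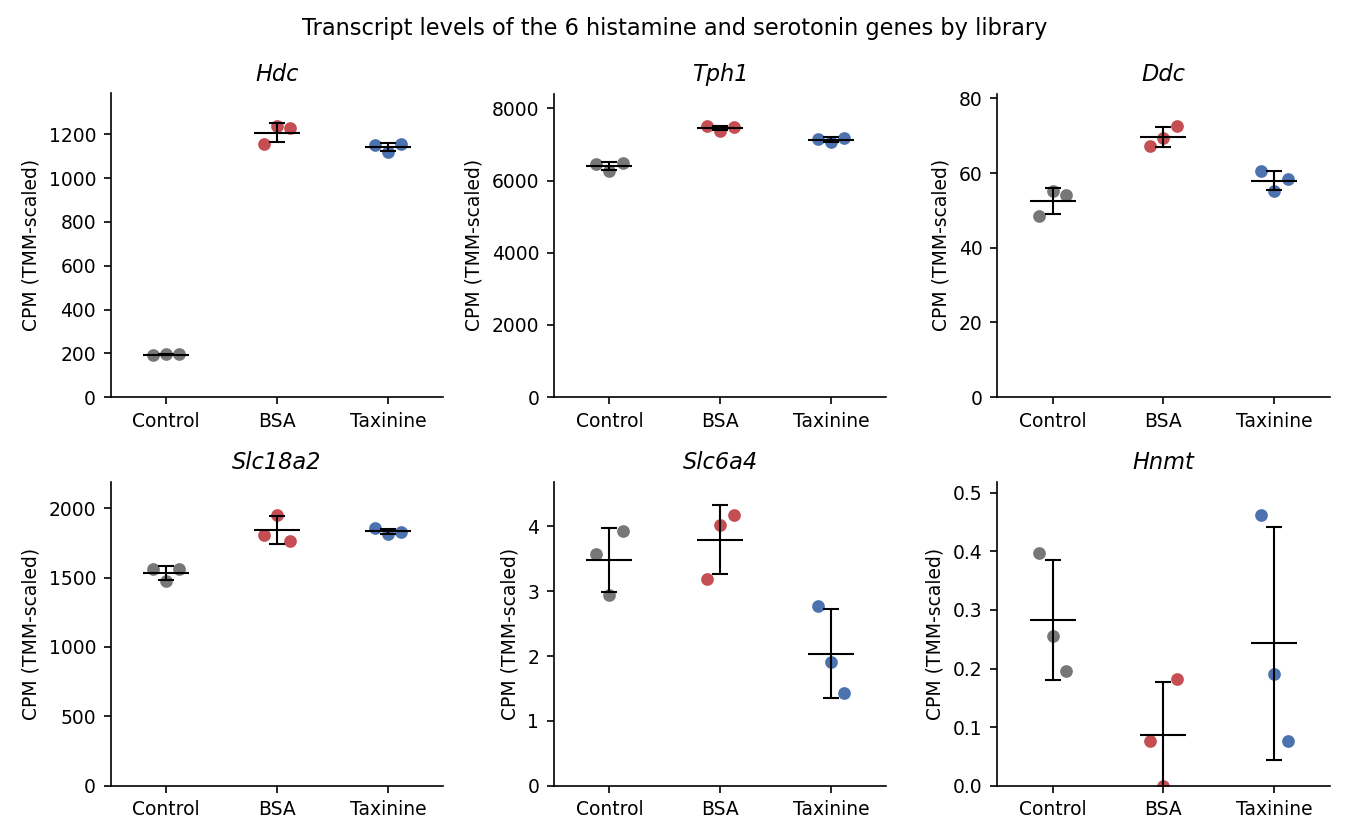
Level of each gene by library, as TMM-scaled CPM on a linear axis from 0, with 3 libraries per group; the horizontal line is the mean and the bars are 1 SD, the lower bar of Hnmt in BSA being cut at 0. The Hdc panel shows BSA and Taxinine libraries between 1120.3 and 1238 CPM against at most 196 in Control, and the Slc6a4 panel shows all 3 Taxinine libraries below every other library.

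Comparing BSA with Control asks how these genes stand after IgE and antigen. Hdc rose about 6.20-fold, Ddc rose by a modest amount, and Tph1 and Slc18a2 rose by less, which depended on how libraries were scaled. Slc6a4 and Hnmt, both at low counts, did not pass the test. Of the 6 members, 4 were called higher and none lower, where a call is an adjusted p under 0.05 in edgeR's quasi-likelihood test over all genes; 34.0% of all genes were called in this comparison, with 16.2% of all genes higher and 17.8% lower. The member groups did not overlap for 5 of 6 genes, against 42.9% of all genes. The members' median log2 difference was 0.24, and that of all genes -0.00.

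Hdc, at chr2:126593667-126619299 on the minus strand (GRCm38, ENSMUSG00000027360), was at 193, 196 and 195 CPM in Control replicates 1 to 3. It was at 1157, 1238 and 1228 CPM in BSA and at 1150.3, 1120.3 and 1156 in Taxinine. Every antigen-treated library lay far above every Control library. The means were 195 ± 1.46 (SD, n = 3) in Control and 1208 ± 44.0 in BSA, a log2 difference of 2.63 ± 0.04 (SE), with an adjusted p of 1.68e-39 by edgeR's quasi-likelihood test. Only 134 of the 15109 genes had a larger log2 difference, and the call held in 19 of 19 alternative settings. In bulk RNA, more cells carrying a transcript and more transcript per cell cannot be told apart, and the basophil list was higher in BSA as given above; its part in the Hdc difference was not tested.

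Tph1, the first serotonin enzyme (chr7:46644641-46672537, minus strand, ENSMUSG00000040046), was already among the most abundant transcripts in untreated cells. Control libraries were at 6453, 6273 and 6497 CPM, and BSA libraries at 7514, 7384 and 7481. The groups did not overlap. The log2 difference was 0.22 ± 0.03 with an adjusted p of 9.40e-07 by edgeR's quasi-likelihood test, and it was -0.01 with plain total counts as the scale.

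Ddc, the decarboxylase of the second serotonin step (chr11:11814101-11898144, minus strand, ENSMUSG00000020182), was at 48.6, 55.1 and 54.0 CPM in Control and 67.2, 69.3 and 72.6 in BSA. All BSA libraries exceeded all Control libraries. The rise was 0.40 ± 0.06 on the log2 scale, with an adjusted p of 2.85e-07 by edgeR's quasi-likelihood test, and it was called in 19 of 19 alternatives, from 0.18 to 0.44. The antisense gene 1700042O10Rik overlaps Ddc with 0 shared exon bases and had 49 to 115 counts per library.

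Slc18a2, the granule transporter (chr19:59260896-59296012, plus strand, ENSMUSG00000025094), was at 1559, 1473 and 1559 CPM in Control and 1806, 1955 and 1766 in BSA. The groups did not overlap, and BSA replicate 2 was the highest. The log2 difference was 0.27 ± 0.04, with an adjusted p of 3.42e-07 by edgeR's quasi-likelihood test; it was 0.04 and uncalled with plain total counts and -0.25, called lower, after quantile normalisation. An antisense gene, Gm29261, shares 111 exon bases with it and had 2 to 10 counts per library.

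Slc6a4, the serotonin transporter (chr11:76998603-77032340, plus strand, ENSMUSG00000020838), had 54, 46 and 60 counts in Control and 42, 51 and 46 in BSA. Its levels of 3.57, 2.94 and 3.93 CPM in Control overlapped those of 3.19, 4.02 and 4.18 in BSA. The log2 difference was 0.12 with a 95% interval of -0.28 to 0.51 and an adjusted p of 0.699 by edgeR's quasi-likelihood test.

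Hnmt, which methylates histamine (chr2:24002910-24049394, minus strand, ENSMUSG00000026986), was barely detected. It had 6, 4 and 3 counts in Control and 1, 0 and 2 in BSA. The ratio of summed counts, 3 against 13, was 0.288 with an exact 95% interval of 0.0527 to 1.05, which covers counting error only. The adjusted p was 0.150 by edgeR's quasi-likelihood test, so a difference was not detectable at this depth.

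The small differences of Tph1 and Slc18a2 turned on scaling. The median log2 difference of all genes was -0.23 when libraries were scaled by plain totals, and -0.02 after quantile normalisation. With plain totals the share of called genes that were higher was 13.6%, and it was 47.6% with TMM. Relative to the median of all genes, Tph1 was at 0.22 and Slc18a2 at 0.27 with plain totals, and at 0.22 and 0.27 with TMM. Hdc was at 2.64 and Ddc at 0.41 above that median under both scalings. After quantile normalisation, which reshapes the whole distribution, Tph1 was at 0.06 and Slc18a2 at -0.23 relative to the median.

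**Figure D2:**
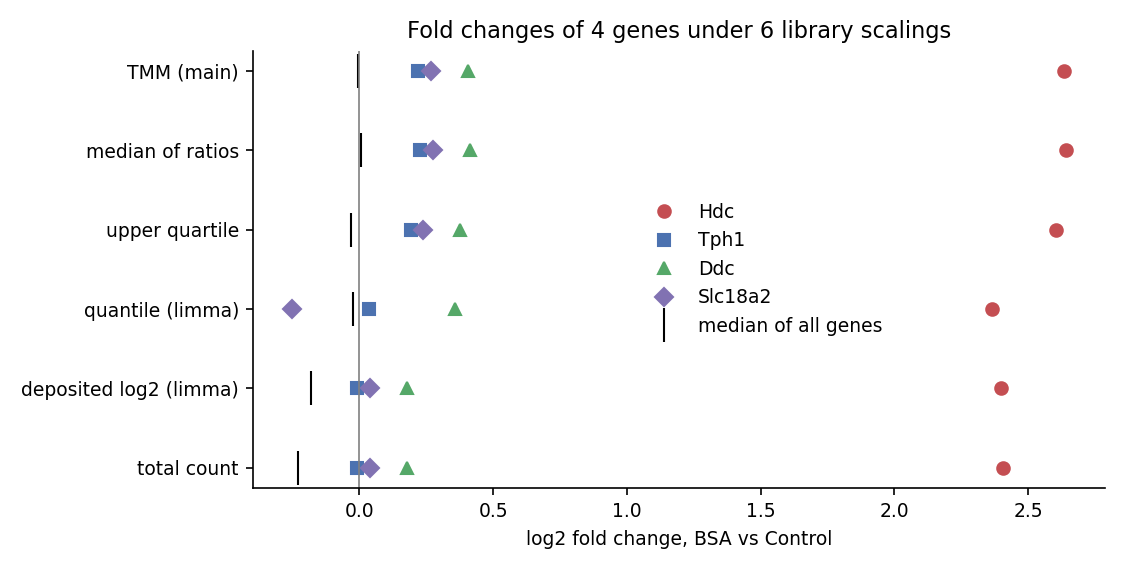
Log2 difference, BSA against Control, for 4 genes under 6 library scalings; each symbol is 1 gene and the black bar is the median of all genes. Hdc stays between 2.36 and 2.64, Slc18a2 runs from -0.25 to 0.28, and the median of all genes lies at -0.23 with plain totals.

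Ratios of 2 member counts within a library do not depend on a library-wide scale factor (TMM, plain totals, median of ratios or upper quartile), though quantile normalisation, which shifts genes by rank, changes them. The ratio of Hdc to Slc18a2 was 0.124, 0.133 and 0.125 in Control and 0.641, 0.633 and 0.696 in BSA, in counts. The groups were far apart, with a log2 difference of 2.37, while the exact two-sided permutation p of 0.1 is the smallest that 3 against 3 allows (0.164 after adjustment over 18 ratio comparisons). The log2 ratio of Tph1 to Slc18a2 differed by -0.05 between the same groups, less than its pooled SD of 0.0648 (exact permutation p = 0.6, adjusted 0.675). That of Ddc to Tph1 was higher in BSA by 0.19, without overlap (exact permutation p = 0.1, adjusted 0.164).

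**Figure D3:**
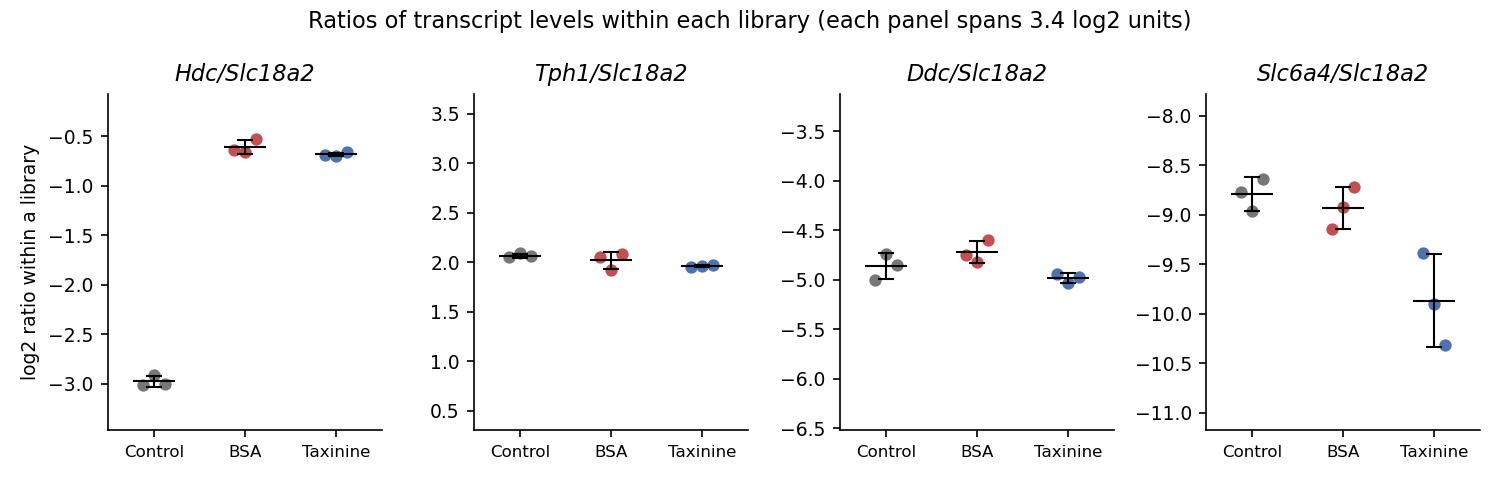
Within-library log2 ratios of Hdc, Tph1, Ddc and Slc6a4 to Slc18a2 by group, with 1 point per library and 3 libraries per group; the line is the mean and the bars are 1 SD, and all panels span the same number of log2 units. The ratio of Hdc to Slc18a2 is near -2.97 in Control and near -0.61 in BSA, and the ratio of Slc6a4 to Slc18a2 is lowest in Taxinine.

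Comparing Taxinine with BSA asks what taxinine before antigen changed. Ddc and Slc6a4 were lower in Taxinine, and Hdc, Tph1 and Slc18a2 differed by at most 0.08 on the log2 scale without passing the test. Thus 2 of 6 members were called lower and none higher; 6.98% of all genes were called, 4.12% lower and 2.86% higher. The groups did not overlap for 4 members, against 23.9% of all genes. The median log2 difference was -0.07 over the members and 0.00 over all genes. The BSA libraries are those of the comparison above, so the 2 sets of values are not independent.

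Ddc was at 60.4, 55.2 and 58.3 CPM in Taxinine, below all 3 BSA libraries (67.2 to 72.6) and just above all 3 Control libraries. It fell by 0.27 ± 0.06 on the log2 scale, with an adjusted p of 0.00316 by edgeR's quasi-likelihood test, and was called in 19 of 19 alternatives, from -0.29 to -0.23. The ratio of Ddc to Tph1 was lower by a log2 difference of -0.20 without overlap (exact permutation p = 0.1, adjusted 0.164), and that ratio does not depend on a library-wide scale factor. Against Control, Ddc in Taxinine differed by 0.14 ± 0.06 with an adjusted p of 0.0754 by edgeR's quasi-likelihood test. Its place above Control turned on scaling. With plain totals that difference was -0.06, and in the deposited log2 values Taxinine (5.76 to 5.89) overlapped Control (5.77 to 5.95).

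Slc6a4 had 24, 20 and 19 counts in Taxinine, or 2.78, 1.90 and 1.44 CPM. Each library was below every BSA and Control library. It fell by 0.95 ± 0.24 on the log2 scale against BSA, with an adjusted p of 0.00807 by edgeR's quasi-likelihood test. Without Taxinine replicate 3 the difference was -0.71 with an adjusted p of 0.117, and DESeq2 gave no adjusted p for this gene. Megakaryocytes and platelets are a lineage known for this transporter. Of the 8 genes listed for it, 5 were in the table, without Gp1bb, Gp6 and Treml1. These 5 summed to 1857 to 1977 CPM in BSA and 1796 to 1833 in Taxinine, mostly from Itga2b and Gp1ba. Pf4, Ppbp and Gp9 stayed at or below 1.97 in all 9 libraries. The part of this lineage in the Slc6a4 difference was not tested.

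Hdc, at a mean of 1142 ± 19.2 CPM in Taxinine, gave a log2 difference of -0.08 with a 95% interval of -0.16 to -0.00, and an adjusted p of 0.226 by edgeR's quasi-likelihood test. Its TMM-scaled libraries in Taxinine lay just below those in BSA, without overlap (at most 1156 against at least 1157 CPM). In the deposited log2 values Hdc in Taxinine (10.07 to 10.11) overlapped BSA (10.09 to 10.20). Tph1 libraries were at 7159.9, 7071 and 7186 CPM, all below BSA, with a difference of -0.06 ± 0.03 and an adjusted p of 0.296. Slc18a2 libraries were at 1855, 1814 and 1831 CPM, inside the BSA range, with a 95% interval of -0.09 to 0.07 for the log2 difference. Hnmt had 4, 2 and 1 counts, and its ratio of summed counts to BSA was 2.65 with an interval of 0.606 to 15.9.

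Taxinine against Control shows where the antigen-treated cells stood with taxinine present, on libraries that both comparisons above also used. Of the 6 members, 3 were called higher and 1 lower, with 33.1% of all genes called (15.9% higher, 17.2% lower), and 5 members did not overlap, against 43.7% of all genes. The members' median was 0.15, and that of all genes -0.01. The overlap count is from TMM-scaled CPM. In the deposited log2 values Ddc overlapped Control, and all Taxinine libraries of Tph1 lay below Control. Hdc rose by 2.55 ± 0.04 (129 genes had larger values), Slc18a2 by 0.26 ± 0.04 and Tph1 by 0.16 ± 0.03 on the log2 scale, with adjusted p of 5.79e-39, 6.63e-07 and 0.000260 by edgeR's quasi-likelihood test. With plain totals Slc18a2 was at 0.06 and Tph1 at -0.05, both uncalled, and after quantile normalisation Slc18a2 was called lower at -0.19 and Tph1 was at -0.02, uncalled. Slc6a4 fell by 0.83 ± 0.23 (adjusted p 0.00451 by the same test), and by 0.59 with an adjusted p of 0.0853 without Taxinine replicate 3.

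**Figure D4:**
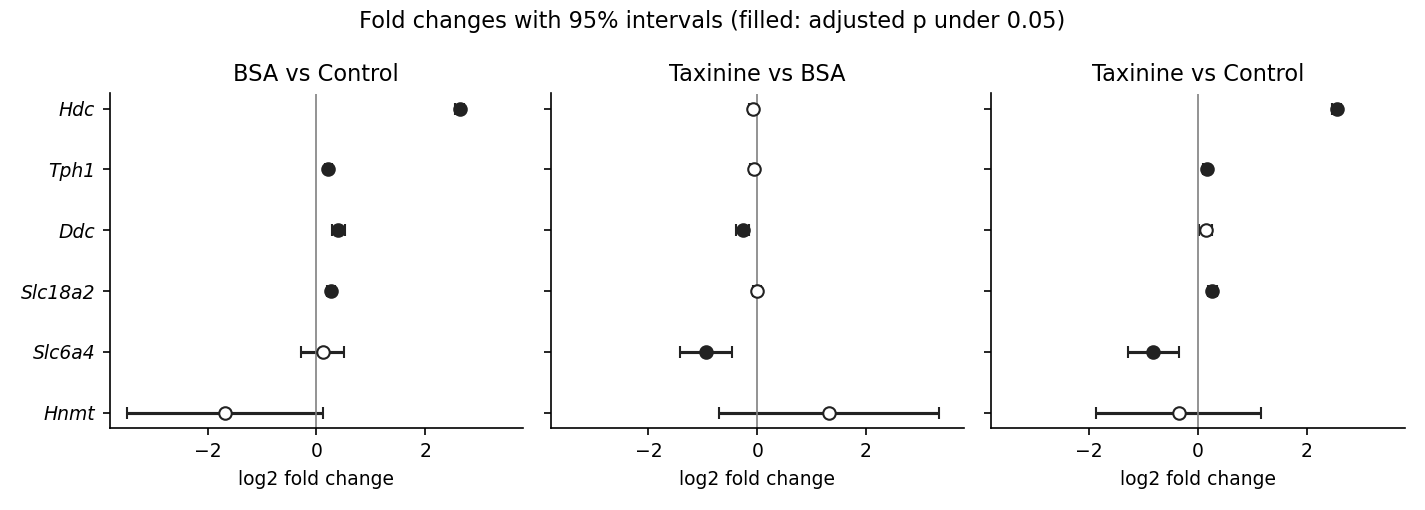
Log2 difference of each gene in the 3 comparisons, as the edgeR estimate with its 95% interval, filled where the adjusted p was under 0.05. Hdc lies at 2.63 and 2.55 in the comparisons with Control and at -0.08 between Taxinine and BSA; the widest interval is that of Hnmt.

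Of 92 genes on 10 lists for the rest of the pathway, 61 were in the table. Between BSA and Control 30 of 61 were called with TMM, 22 higher and 8 lower (49.2%, against 34.0% of all genes). With plain totals 14 were higher and 27 lower, so the direction of the small differences turned on scaling. Under plain totals 7977 of all 15109 genes were called, and 13.6% of these were higher. Lower calls were thus common among all genes, which applies also to the plain-total counts of each list below in this comparison. The median log2 difference of the 61 genes was 0.06 with TMM and -0.16 with plain totals.

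For the cofactor of Tph1, Gch1, the rate-limiting enzyme of tetrahydrobiopterin synthesis, was at 99.4, 107 and 108 CPM in Control and 486, 496 and 493 in BSA. All 3 BSA libraries were far above Control, a rise of 2.23 ± 0.04 on the log2 scale. Pts, which acts next in that synthesis, fell by 0.46 ± 0.06. The other 6 of the 8 genes on this list were not called, and neither were the 3 genes measured for pyridoxal phosphate, the cofactor of Hdc and Ddc.

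Carriers of the precursor amino acids were mostly higher, with 7 of 8 called higher and none lower with TMM, and 5 higher and 1 lower with plain totals. Slc7a5, the large neutral amino acid transporter that carries tryptophan and histidine, was at 838, 899 and 839 CPM in Control and 1503, 1533 and 1519 in BSA, without overlap and 0.82 ± 0.04 apart on the log2 scale. Slc38a1 rose by 0.49 and Slc38a2 by 0.41, the latter not called after quantile normalisation. On a list of other genes linked to amine synthesis, not all of them enzymes, 3 of 4 measured genes rose. All 3 (Odc1 by 0.82, Azin1 by 0.87, Oaz1 by 0.17) relate to polyamines rather than monoamines. Oaz1 was at -0.05 and uncalled with plain totals.

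Of the granule genes, 8 of 12 were called higher and 1 lower with TMM, and 4 higher and 3 lower with plain totals. Srgn, the serglycin core protein that holds amines in mast cell granules, rose by 0.69 ± 0.04, from 2554 ± 55.9 to 4124 ± 243 CPM, though not after quantile normalisation. Ndst2, which sulphates the heparin of mast cell granules, fell by 0.56 ± 0.04, from 820.0 ± 22.8 to 556 ± 30.6. The proton pump subunit Atp6v1e1 rose by 0.69 ± 0.05.

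Breakdown enzymes other than Hnmt moved little, with 1 of 8 called higher and 1 lower, and none higher and 4 lower with plain totals. Aldh2 was 0.17 higher in BSA with TMM, a call lost with plain totals and turned to lower after quantile normalisation (-0.25, limma adjusted p 1.72e-05), and Aldh3a2 fell by 0.34. Maob, a monoamine oxidase, was at 478 ± 1.33 CPM in Control and 508 ± 11.7 in BSA without passing the test with TMM, and it was called lower with plain totals (-0.14) and after quantile normalisation (-0.30). Maoa was at 3.84 and 3.60 CPM. Of 9 other monoamine transporters only Slc18b1 and Slc22a3 were in the table, and neither was called.

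Of the receptors, Htr1b, a serotonin receptor, had 12 counts over the 3 Control libraries and 131 over BSA, with every BSA library (2.96, 3.86 and 3.91 CPM) above Control (0.331, 0.256 and 0.196). The ratio of summed counts was 13.6, with an exact 95% interval of 7.55 to 27.1, and the adjusted p was 1.78e-12 by edgeR's quasi-likelihood test. Hrh1 fell by 0.69 ± 0.20, from 4.17 to 2.55 CPM. Hrh4, a histamine receptor of blood cells, fell by 0.41 ± 0.09, from 18.8 to 14.1 CPM. Hrh2 was at 16.1 and 13.6 CPM (adjusted p 0.0563, and called lower with plain totals at -0.47), and Htr2a and Htr7 stayed below 1 CPM.

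Among 10 transcription factors linked to these genes, 1 rose and 3 fell with TMM, and 1 rose and 9 fell with plain totals. Klf4 was at 1.65, 1.60 and 1.96 CPM in Control and 13.6, 13.3 and 15.6 in BSA, 3.01 ± 0.15 higher on the log2 scale. Gata1, a factor of mast cell and erythroid lineages, fell by 0.40 ± 0.05, and Creb1, which binds the cyclic AMP response element, by 0.38 ± 0.06.

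Between Taxinine and BSA, 9 of the 61 genes were called, 3 higher and 6 lower (14.8%, against 6.98% of all genes), with a median of -0.03. With plain totals 4 were higher and 5 lower, while 1122 of all genes were called and 57.6% of these were higher. Gata1 was at 92.8, 90.3 and 100.4 CPM in BSA and 81.1, 79.95 and 75.2 in Taxinine, without overlap, and fell by 0.26 ± 0.05. Gata2, its mast cell relative, fell by 0.16 ± 0.04, from 1555 to 1389 CPM, a call lost after quantile normalisation. Klf4 rose by 0.44 ± 0.10. Gch1 fell by 0.18 ± 0.04, to 434, 432 and 437 CPM, below all BSA libraries; this call too was lost after quantile normalisation. Slc38a2 rose by 0.43 ± 0.05, to 850.3, 899.5 and 833 CPM, and Azin1 by 0.23. Aldh2 was 0.16 lower, a call lost in 5 of 19 alternatives, and no granule gene or receptor was called. Mitf and Tal1, chosen after their values were seen, were lower by 0.19 and 0.16, and lost the call in 8 and in 2 of 19 alternatives.

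**Figure D5:**
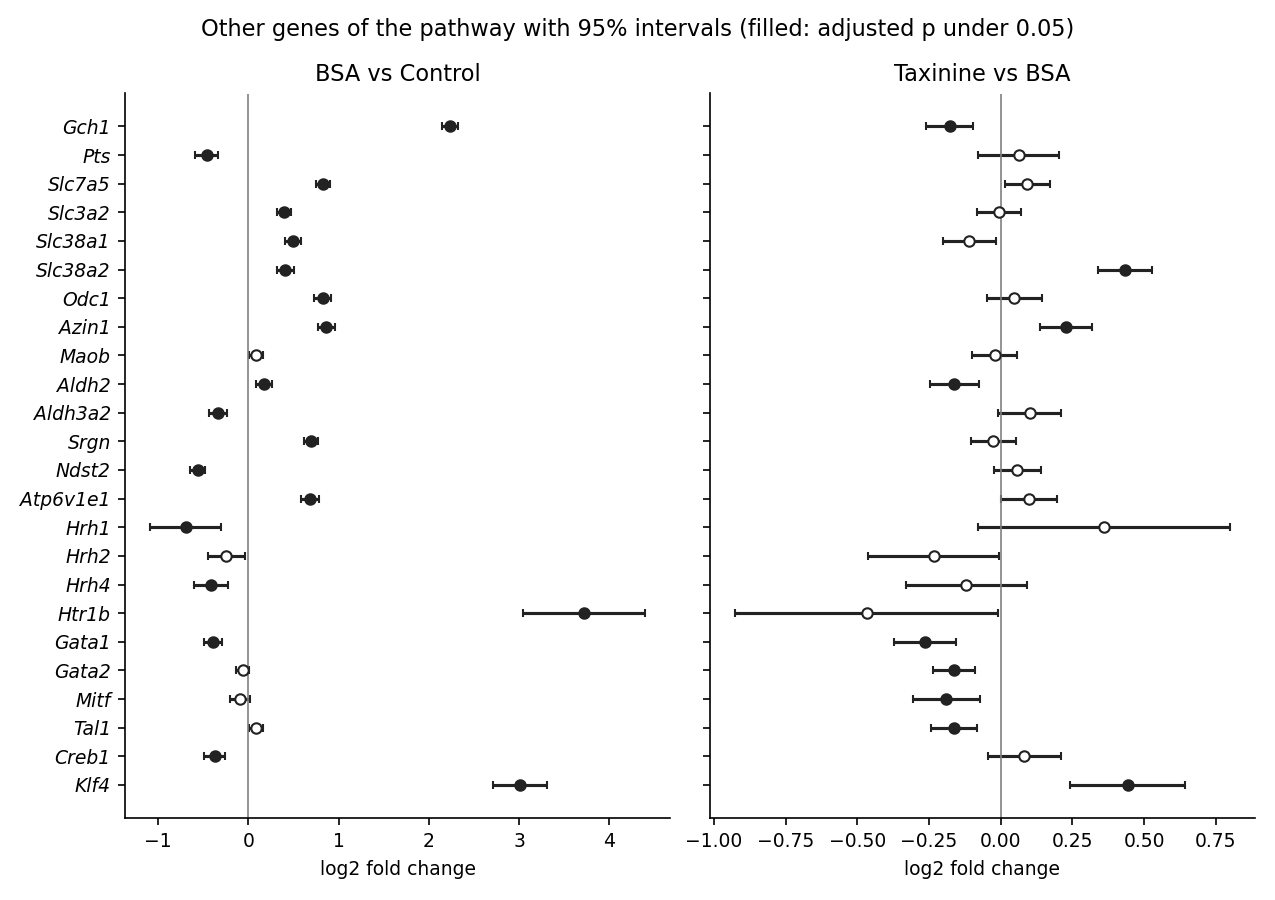
Log2 differences of pathway genes around the 6 members, BSA against Control and Taxinine against BSA, as edgeR estimates with 95% intervals, filled where the adjusted p was under 0.05; the panels have different scales. Htr1b, Klf4 and Gch1 lie farthest to the right in the first comparison at 3.72, 3.01 and 2.23, and Gata1, Gata2 and Gch1 lie below 0 in the second.

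Over the 9 libraries, the genes whose levels followed each member most closely were found by Pearson's r on log2(CPM + 1) among 10713 genes; the points share 3 group means, so r mainly repeats the group pattern. Fosb, an immediate early gene, Havcr2 and Plekho2 were closest to Hdc, with r of 1.00, 0.999 and 0.999, and Fosb went from a mean of 102 to 4367 CPM between Control and BSA. Lcp2, Ywhaz and Il6 were closest to Tph1 (0.996, 0.993 and 0.993). Arhgef3, Chmp4b and Nop53 were closest to Ddc (0.983, 0.971 and 0.962), and Jmjd1c, Hpgds and Notch3 to Slc18a2 (0.992, 0.990 and 0.988). For Slc6a4 they were Gpsm1, Hoxb7 and Ripor2 (0.970, 0.930 and 0.922), and for Hnmt, whose counts were few, no gene exceeded 0.897.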

How the data were processed

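Mouse mast cells were profiled by polyA-selected, paired-end RNA-seq. Reads were aligned with STAR 2.7.0f to mm10/GRCm38 and limma 3.11 was used, per the submitters' processing notes; the counting program, its strand setting and annotation were not given in the sources used here. As deposited by the authors, 1 table holds whole-number counts, named as normalised but with unequal column totals and used as unscaled, and another holds log2 values, which the authors made as log2(CPM + 1) from plain totals (differences at most 5.0e-05). No gene is listed with counts in fewer than 4 libraries. Genes were tested with edgeR 4.0.16's quasi-likelihood test with TMM over all 9 libraries, in R 4.3.3, with Benjamini-Hochberg adjustment over 15109 genes and a threshold of 0.05, after a check on simulated counts. Alternatives were other scalings, DESeq2 1.42.0, limma 3.58.1 on log2 values, a filter of 10 counts in 3 libraries, a replicate block, and leaving out each library. Coordinates are GENCODE M21 (15106 identifiers matched), promoters RefSeq GRCm38.p6. Named pathway genes are, per list, up to 3 called genes of smallest p in BSA against Control and in Taxinine against BSA, plus receptors, transporters and breakdown enzymes in the table. Members and lists were chosen with earlier results of these data known.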

Additional observations from a re-analysis of the deposited data

How the results depend on the processing

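Hdc and Ddc kept their calls in BSA against Control, and Ddc in Taxinine against BSA, in 19 of 19 alternatives, in each case with the same sign. With plain total counts, and with limma on the deposited log2 values, 2 members were called in BSA against Control and 2 in Taxinine against Control, in place of 4 and 4. Yet these settings called more of the 15109 genes, 7977 and 7852 in BSA against Control, where TMM called 5144. In Taxinine against Control they called 7386 and 7436, where TMM called 5008. DESeq2 called 1 member in Taxinine against BSA in place of 2, but it gave Slc6a4 no adjusted p (log2 difference -0.94). Leaving out 1 library gave 1 to 2, the 1 without Taxinine replicate 3. Over all genes DESeq2 called 815 there, and the fit without Taxinine replicate 3 called 699, against 1055. Signs turned with plain totals and with the deposited log2 values for Tph1 (-0.0082 and -0.0081) and Slc6a4 (-0.107 and -0.0795) in BSA against Control, for Slc18a2 (0.0191 and 0.0208) in Taxinine against BSA, and for Tph1 (-0.0454 and -0.0453) and Ddc (-0.0624 and -0.0577) in Taxinine against Control. With quantile normalisation they turned for Slc18a2 (-0.25 in BSA against Control and -0.19 in Taxinine against Control, both called lower, and 0.0622, uncalled, in Taxinine against BSA) and Tph1 (-0.0201 in Taxinine against Control). Leaving out 1 library put Slc18a2 in Taxinine against BSA at -0.0363 to 0.038, and Hnmt in Taxinine against Control at -1.10 to 0.15. Ddc in Taxinine against Control was called with the count filter (0.15) and without Control replicate 2 (0.17). Plain totals and the deposited values differ from TMM by the shift of all genes given above; other causes were not tested. The share of called genes that were higher in Taxinine against BSA was 40.9% with TMM and 57.6% with plain totals. After each gene's group mean was subtracted, what remained correlated at -0.14 to 0.106 between same-numbered libraries and at -0.126 to 0.14 between others. No library matched its own number best in both other groups, so the numbers were not taken as pairs. With a replicate block 4, 2 and 4 members were called in the 3 comparisons. Hnmt and Slc6a4 are limited by depth, with 0 to 6 and 19 to 60 counts per library.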
